A study of Mus musculus with 5 samples.

Results

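Inhibitory checkpoint receptors were described in T cells from 4T1 tumors through 7 genes, Pdcd1, Lag3, Havcr2, Tigit, Ctla4, Cd160 and Entpd1. They were found by symbol, and all 7 were listed once among the 32285 features of each T cell library. Tumors had been grown in the mammary fat pad of 12-week-old BALB/c mice from 4T1 cells, a mouse line used as a model of triple negative breast cancer, named 4T1-Th1.1 in the series design and 4T1-Thy1.1 in the methods of the study. Doxorubicin (DOX), a chemotherapy drug that damages DNA, had been injected intravenously at 5 mg/kg in 3 treatments, 3 days apart, in both groups. Tumors whose growth was slowed under DOX were called sensitive and those that grew on unaffected were called resistant, so the groups differed by the response of the tumor and not by the treatment. T cells were enriched by magnetic depletion of other cells and of cells bearing CD90.1, and the cells of 3 tumors were pooled into each library. There was 1 library per group and no untreated T cell library, so no test across tumors was possible and none is given. Every interval is a 95% interval and covers counting error only, not the spread between mice.

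Droplet single-cell RNA sequencing (scRNA-Seq) counted unique molecular identifiers (UMIs), one for each captured transcript. The sensitive library held 3949 barcodes and 31690845 UMIs and the resistant library 6116 barcodes and 35908799 UMIs. Mitochondrial UMIs made up a median of 2.47% of a sensitive and 8.95% of a resistant barcode, and 3459 and 3166 cells were kept after filtering. Clusters of T cells and natural killer (NK) cells held 2071 and 1900 of them, with median depths of 3938 and 4523.5 UMIs. In these T/NK cells the median mitochondrial share was still 2.55% against 5.66%, and the part of this gap in the values below was not tested beyond the limits named beside them. The libraries shared 31 barcodes, 7 of them among T/NK cells.

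Inhibitory receptors restrain T cells that have met antigen. They are induced by signals from the T cell receptor, fall again when antigen is cleared and stay on the surface when antigen persists, a state called exhaustion in which several of them are carried by the same cell. In tumors they are carried by CD8+ T cells, by helper T cells, by Foxp3+ regulatory T cells, where CTLA-4 is part of the suppressive function, and by NK cells. PD-1, the product of Pdcd1, and CTLA-4, the product of Ctla4, belong to the CD28 family and bind ligands of the B7 family. LAG-3 binds MHC class II and other ligands, TIGIT competes with the activating receptor CD226 for CD155, TIM-3 (Havcr2) binds galectin-9 and phosphatidylserine among others, and CD160 binds HVEM. Entpd1 encodes CD39, an ectoenzyme that breaks down extracellular ATP on the way to adenosine.

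All 7 genes are protein coding, and their positions were read from the GENCODE annotation of GRCm38, the build named mm10 in the processing notes. Pdcd1 lies on the minus strand of chromosome 1 from 94038305 to 94052553 and Ctla4 on the plus strand of the same chromosome from 60887000 to 60915832. Lag3 spans 124904361 to 124911705 on chromosome 6 (minus strand) and Tigit 43648867 to 43664146 on chromosome 16 (minus strand). Havcr2 covers 46454935 to 46481255 of chromosome 11 (plus strand), Cd160 covers 96798763 to 96829351 of chromosome 3 (minus strand) and Entpd1 covers 40612366 to 40741602 of chromosome 19 (plus strand). The 250 bases before the transcription start are printed for Ctla4, the receptor with the largest difference between libraries in CD8+ cells, and for Pdcd1 and Havcr2, which were seen together more often than independence would give. NFAT and AP-1 are factors downstream of the T cell receptor. GGAAA is known to be bound by NFAT, and TGANTCA, with N any base, is a loose form of the AP-1 motif TGA(C/G)TCA. Matches on either strand are in capitals (TTTCC is GGAAA on the other strand). Sequences are from RefSeq (GRCm38.p6), written 5′ to 3′ along each gene's strand, and 6 of the 7 receptors had an entry. RefSeq's start for Ctla4 lies inside the GENCODE span given above, downstream of its first base, so that window precedes the RefSeq start only.
Ctla4, chr1:60908775-60909024, plus strand: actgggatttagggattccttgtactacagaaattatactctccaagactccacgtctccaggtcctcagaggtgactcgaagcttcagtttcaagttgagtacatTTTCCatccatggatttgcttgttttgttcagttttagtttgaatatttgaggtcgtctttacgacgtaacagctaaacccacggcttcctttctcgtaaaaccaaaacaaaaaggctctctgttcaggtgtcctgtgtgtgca
Pdcd1, chr1:94052554-94052803, minus strand: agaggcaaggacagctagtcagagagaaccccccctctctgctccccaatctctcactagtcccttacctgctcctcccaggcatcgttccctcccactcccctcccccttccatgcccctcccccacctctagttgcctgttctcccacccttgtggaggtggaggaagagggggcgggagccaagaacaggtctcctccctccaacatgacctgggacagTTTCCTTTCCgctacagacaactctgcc
Havcr2, chr11:46454681-46454930, plus strand: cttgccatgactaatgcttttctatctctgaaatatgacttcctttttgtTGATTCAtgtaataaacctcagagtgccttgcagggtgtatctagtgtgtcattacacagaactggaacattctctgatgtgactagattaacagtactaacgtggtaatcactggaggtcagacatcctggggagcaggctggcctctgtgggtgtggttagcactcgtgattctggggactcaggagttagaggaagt
GGAAA matched 1 position before Ctla4, 2 positions before Pdcd1 and none before Havcr2, and TGANTCA matched 1 position before Havcr2 alone among these 3 windows. That match reads TGATTCA, with T and not C or G in the middle. A GGAAA match was present in 55.6% and a TGANTCA match in 6.75% of the 32851 promoter windows of that length, so the first says little, and a match is a description and not a site.

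Cells were assigned to 5 gates that shared no cell and used no receptor gene. CD8+ cells had a Cd3 UMI and Cd8a or Cd8b1, without Cd4 or Foxp3. CD4+ cells had Cd3 and Cd4 without Cd8 or Foxp3, and Foxp3+ cells had Cd3 and Foxp3 without Cd8. Gamma-delta cells had Cd3 and Trdc without Cd8, Cd4 or Foxp3, and NK cells had Ncr1 or Klrb1c without Cd3, Cd8b1 or Cd4. Because a deeper cell shows more receptors, each cell was thinned at random to 1000 UMIs before a receptor was counted as detected, at 1 UMI or more. This left 1280 sensitive and 1561 resistant CD8+ cells, 177 and 45 CD4+ cells, 44 and 12 Foxp3+ cells, 79 and 43 NK cells, and 81 and 18 gamma-delta cells. Markers that had not drawn a gate were then checked in it. Il2ra, which encodes a subunit of the interleukin 2 receptor that regulatory T cells carry, was detected in 74.5% and 50.0% of Foxp3+ cells against 15.2% and 16.5% of CD8+ cells, and Tcrg-C1, a constant gene of the gamma chain, in 63.0% and 38.9% of gamma-delta cells. Ncr1 was also seen in 38.9% of the 18 resistant gamma-delta cells, against 12.3% in the sensitive library, so that small gate held cells with an NK marker. Trac, the constant gene of the alpha chain, had a UMI in 25.9% of sensitive and 5.56% of resistant gamma-delta cells against 82.2% and 84.3% of CD8+ cells, and Trdc in 13.9% and 18.6% of NK cells, so neither gate was free of markers of the other T cell classes.

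Free RNA can place UMIs in cells that do not express a gene, so the same thinning was applied to fibroblast-like cells of the same libraries. At 1000 UMIs each receptor was detected in at most 0.729% of 823 sensitive and at most 0.81% of 617 resistant fibroblast-like cells, whose full median depths were 13288 and 14075 UMIs against 4004 and 4632 in CD8+ cells. The receptors were not limited to lymphocytes. Entpd1 was detected in 26.0% of sensitive and 24.6% of resistant neutrophil-like cells and in 6.36% and 8.91% of macrophage or monocyte-like cells, and Havcr2 in 14.6% of 48 and 7.79% of 77 dendritic cell-like cells. A count of 0 cells at 1000 UMIs speaks of cells with a UMI at that depth and not of cells without the transcript, so full counts are given beside such zeros, and the limit given with a zero is 3 cells of the total. Detection was compared between gates and libraries for 1 receptor at a time and was not ranked between receptors, because the counts were not per length and capture differs from gene to gene.

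Pdcd1 was detected in 372 of 1280 sensitive CD8+ cells, 29.1% (26.6 to 31.6), and in 490 of 1561 resistant CD8+ cells, 31.4% (29.1 to 33.8). These intervals overlapped, as they did at 500 and 2000 UMIs. At 3000 UMIs they did not, with 53.7% (50.5 to 56.9) and 60.2% (57.4 to 62.9), the resistant library being higher. Over all T/NK cells, where the makeup of gates also differed, Pdcd1 was detected in 24.0% (22.1 to 25.9) and 28.7% (26.6 to 30.7) at 1000 UMIs. In CD4+ cells the shares were 15.3% (10.3 to 21.4) and 15.6% (6.49 to 29.5), and in gamma-delta cells 23.5% (14.8 to 34.2) and 16.7% (3.58 to 41.4). Foxp3+ cells had 2 of 44 and 2 of 12 cells with Pdcd1, and NK cells 1 of 79 and 0 of 43, which allows a share of up to 6.98% for the latter, where full counts also had 0 of 43. In the sensitive library, CD8+ and gamma-delta cells had overlapping intervals at the top of this order, gamma-delta and CD4+ cells overlapped next, and the wide interval of Foxp3+ cells, 4.55% (0.555 to 15.5), overlapped those of CD4+, gamma-delta and NK cells.

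Ctla4 had a higher share in sensitive than in resistant CD8+ cells at each depth to which cells were thinned. It was detected in 23.4% (21.1 to 25.8) of the CD8+ cells of the sensitive library and 13.6% (12.0 to 15.4) of those of the resistant library. The intervals also stood apart at 500, 2000 and 3000 UMIs, with 45.5% (42.3 to 48.7) and 30.7% (28.2 to 33.3) at the last. Across gates its share was highest in Foxp3+ cells, with 59.1% (43.2 to 73.7) and 41.7% (15.2 to 72.3), followed by CD4+ cells, with 31.6% (24.9 to 39.0) and 22.2% (11.2 to 37.1). NK cells had 7.59% and 6.98%, and gamma-delta cells 3.70% and 5.56%, all on 6 cells or fewer. The intervals of the Foxp3+ and CD4+ gates did not overlap in the sensitive library and overlapped in the resistant library, where they rest on 12 and 45 cells.

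Tigit was found in 24.4% (22.0 to 26.8) of the CD8+ cells of the sensitive library and 20.2% (18.3 to 22.3) of those of the resistant library. Foxp3+ cells had 27.3% (15 to 42.8) and 8.33% (0.211 to 38.5), CD4+ cells 14.1% and 17.8%, and NK cells 13.9% and 16.3%. All of these intervals overlapped between the libraries. In CD8+ cells at 2000 UMIs they fell just apart, 41.9% (39.0 to 44.8) and 36.5% (34.0 to 39.0), and they overlapped again at 3000 UMIs. Gamma-delta cells had 1 of 81 sensitive cells, 1.23% (0.0313 to 6.69), and 3 of 18 resistant cells, 16.7% (3.58 to 41.4).

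Lag3 was found in 28.4% (26.0 to 31.0) of the CD8+ cells of the sensitive library and 25.3% (23.2 to 27.5) of those of the resistant library, with overlapping intervals. The shares were level at greater depth, 40.5% and 40.7% at 2000 UMIs and 50.6% and 51.0% at 3000 UMIs. In CD4+ cells it was present in 37 of 177 sensitive cells, 20.9% (15.2 to 27.6), but in only 1 of 45 resistant cells, 2.22% (0.0562 to 11.8), and these intervals did not overlap. NK cells had 13 of 79, 16.5% (9.06 to 26.5), and 3 of 43, 6.98% (1.46 to 19.1). No gamma-delta cell had Lag3 at 1000 UMIs, with 0 of 81, which allows up to 3.70% at that depth, and 0 of 18, which allows up to 16.7%. In full counts Lag3 was found in 4 of 81 and 2 of 18 gamma-delta cells, 4.94% and 11.1%, against 54.0% and 64.6% of CD8+ cells. It was found in 3.11% and 6.63% of fibroblast-like cells, which were deeper, so these shares are not at equal depth. Per UMI, Lag3 was at 22.3 (8.96 to 45.9) and 41.0 (8.46 to 120) CPM in gamma-delta cells, on 7 and 3 UMIs. That compares with 4.74 (3.65 to 6.05) and 5.60 (4.27 to 7.21) CPM in fibroblast-like cells and 417 and 295 CPM in CD8+ cells. Lag3 thus separated gamma-delta cells, in which Pdcd1 was detected, from CD8+ cells of the same library, with intervals apart in both libraries.

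Havcr2, Cd160 and Entpd1 had their own spread over the gates. Havcr2 was present in 5.78% (4.57 to 7.20) of the CD8+ cells of the sensitive library and 5.57% (4.49 to 6.83) of those of the resistant library, in 5 of 177 and 1 of 45 CD4+ cells, and in no Foxp3+, NK or gamma-delta cell of either library at this depth. In full counts Havcr2 was found in 1 of 79 sensitive and 3 of 43 resistant NK cells, 1.27% and 6.98% against 1.68% and 2.10% of the deeper fibroblast-like cells, and still in no Foxp3+ or gamma-delta cell. Cd160, which NK cells are known to carry, was present in 11.4% (5.34 to 20.5) of the NK cells of the sensitive library and 9.30% (2.59 to 22.1) of those of the resistant library, in 6.41% (5.13 to 7.89) and 5.51% (4.43 to 6.76) of CD8+ cells and in 7.41% and 5.56% of gamma-delta cells. No CD4+ or Foxp3+ cell had it at 1000 UMIs, which for the 177 sensitive CD4+ cells allows a share of up to 1.69% at that depth, and in full counts it was found in 1 of 179 and 1 of 45 CD4+ cells and in 0 of 47 and 0 of 12 Foxp3+ cells. Entpd1 was present in 12.1% (10.4 to 14.0) of the CD8+ cells of the sensitive library and 8.78% (7.42 to 10.3) of those of the resistant library, intervals that did not overlap, nor did those at 3000 UMIs, 29.7% (26.9 to 32.7) and 22.4% (20.2 to 24.8). At 500 and 2000 UMIs the Entpd1 intervals overlapped. Of the other gates, 4 of 44 sensitive Foxp3+ cells, 8 of 177 sensitive CD4+ cells and 3 or fewer cells of each remaining gate had Entpd1.

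**Figure D1:**
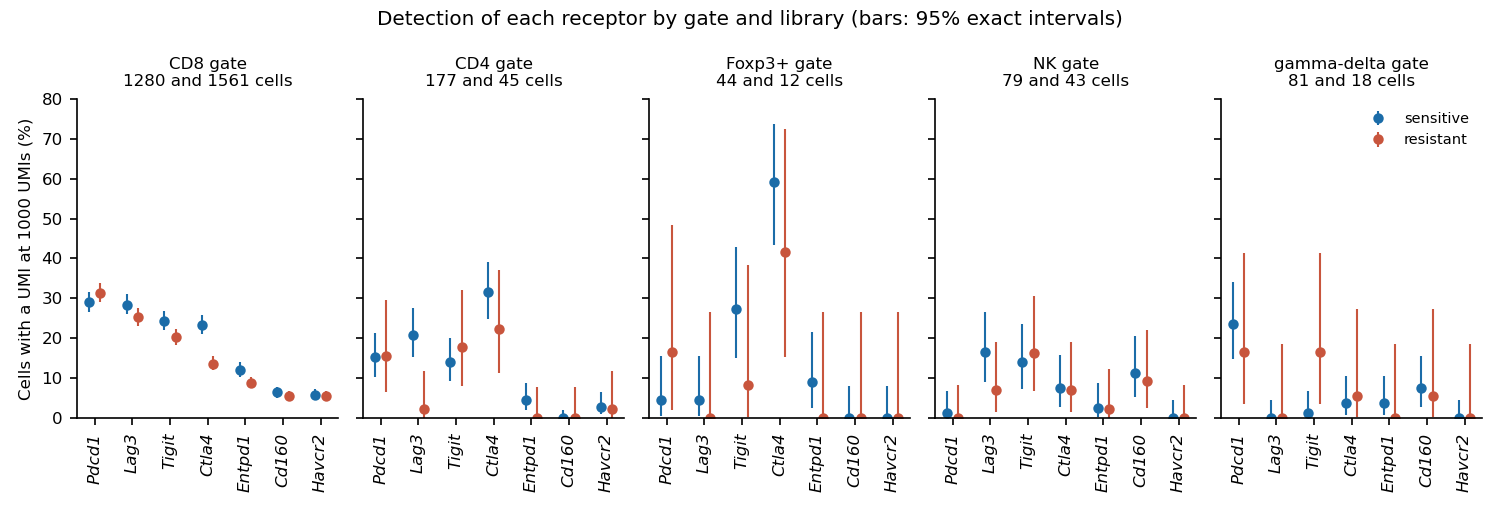
Share of cells with at least 1 UMI of each receptor after thinning to 1000 UMIs (vertical axis, percent), in 5 gates with the number of sensitive and resistant cells above each panel; points are shares of 1 library and bars 95% Clopper-Pearson intervals. Ctla4 lies highest in Foxp3+ cells, 59.1% and 41.7%, and differs between libraries in CD8+ cells, 23.4% and 13.6%.

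Levels were then compared as UMIs of a gene summed over a gate and divided by all UMIs of that gate, on the usual CPM scale, with exact conditional binomial intervals for the ratio of sensitive to resistant, and a ratio past 1.5-fold in either direction was taken as the size rule for genes with at least 100 UMIs over both libraries. In CD8+ cells 1 of the 7 receptors passed it, against a background of 7.84% of 8256 genes. Ctla4 reached 341 CPM (sensitive) and 178 CPM (resistant), and its ratio of 1.91 (1.79 to 2.04) was higher than that of 98.7% of genes. It was 2.0 in cells with at most 5% mitochondrial UMIs and 1.79 without cells with a Trbv14 UMI (see the clusters further on). Lag3 was at 417 and 295 CPM, a ratio of 1.41 (1.34 to 1.49), which came to 1.59 at the stricter mitochondrial limit and to 1.19 without Trbv14 cells. The remaining ratios were 1.26 (1.19 to 1.35) for Tigit, 1.25 (1.14 to 1.38) for Entpd1, 1.16 (1.03 to 1.31) for Cd160, 1.09 (0.966 to 1.24) for Havcr2 and 1.04 (0.994 to 1.10) for Pdcd1. Without Trbv14 cells the last 2 were below 1, at 0.845 for Havcr2 and 0.992 for Pdcd1. The median gene had a ratio of 1.09 in this gate. Relative to that median, Pdcd1 was at 0.954 and Havcr2 at 0.999, so neither was higher in the sensitive library than a typical gene.

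In CD4+ cells 4 receptors had enough UMIs and 2 of them passed 1.5-fold, against 22.9% of 1552 genes. Lag3 reached 389 CPM (sensitive, 374 UMIs) and 53.1 CPM (resistant, 9 UMIs), a ratio of 7.33 (3.82 to 16.2). Of those UMIs 13.4% and 33.3% came from 1 cell of each library, and the ratio ranged from 4.53 to 8.25 over the alternatives tried. The CD4+ cells of the libraries also differed in other genes, among them Ifng at 130 (sensitive) and 1221 CPM (resistant) and Batf at 337 and 70.8 CPM. The part of this difference in makeup in the Lag3 ratio was not tested. Ctla4 was at 657 and 366 CPM, a ratio of 1.80 (1.38 to 2.37), whereas Pdcd1 had 0.976 (0.708 to 1.37) and Tigit 0.827 (0.561 to 1.25). In Foxp3+ cells 2 receptors had enough UMIs and 1 passed, against 30.6% of 356 genes, with a ratio of 1.93 (1.00 to 4.17) for Tigit and 1.48 (1.04 to 2.16) for Ctla4. Both ratios were below 1, at 0.787 and 0.620, in the few cells with at most 5% mitochondrial UMIs, so no direction is given for this gate. In NK cells both receptors with enough UMIs passed, against 18.7% of 1039 genes, Tigit with 1.72 (1.2 to 2.50) and Cd160 with 1.51 (0.986 to 2.35), but without cells with a UMI of Mki67 or Top2a these were 1.18 and 1.08. No receptor reached 100 UMIs in gamma-delta cells, where 25.5% of 513 genes passed. Pdcd1 had 81 UMIs in 81 sensitive and 6 UMIs in 18 resistant gamma-delta cells there, 258 and 82.0 CPM.

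The number of receptors per cell was counted from 0 to 7. Sensitive CD8+ cells had a mean of 1.30 ± 1.23 (SD over 1280 cells) and resistant ones 1.10 ± 1.04 (SD over 1561 cells), and the highest number was 6 and 5. No receptor was detected in 31.9% and 34.1% of cells, and exactly 1 in 31.1% and 34.0%. Cells with 2 or more made up 37.0% (34.4 to 39.7) and 31.9% (29.6 to 34.3), a ratio of 1.16 (1.05 to 1.29). Cells with 3 or more made up 17.6% (15.5 to 19.8) and 10.6% (9.09 to 12.2), a ratio of 1.66 (1.38 to 2.0), and those with 4 or more 5.47% (4.29 to 6.86) and 1.73% (1.14 to 2.51). The libraries were thus close at 0 and 1 receptor and further apart at higher numbers. With at most 5% mitochondrial UMIs the ratio was 1.12 (0.982 to 1.27) for 2 or more and 1.74 (1.35 to 2.25) for 3 or more.

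These numbers were set beside those expected if the 7 receptors were detected independently, each with its own share in that library. Independence would leave 22.8% of sensitive and 28.7% of resistant CD8+ cells with no receptor, below the 31.9% and 34.1% observed. It would give 3 or more receptors to 11.6% and 7.57% of cells, where 17.6% and 10.6% were observed, and 4 or more to 2.09% and 1.09%, where 5.47% and 1.73% were observed. Both ends of the distribution were therefore fuller than independence gives, and in the sensitive library cells with 4 or more were 2.62 times as frequent as under independence against 1.59 times in the resistant library.

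**Figure D2:**
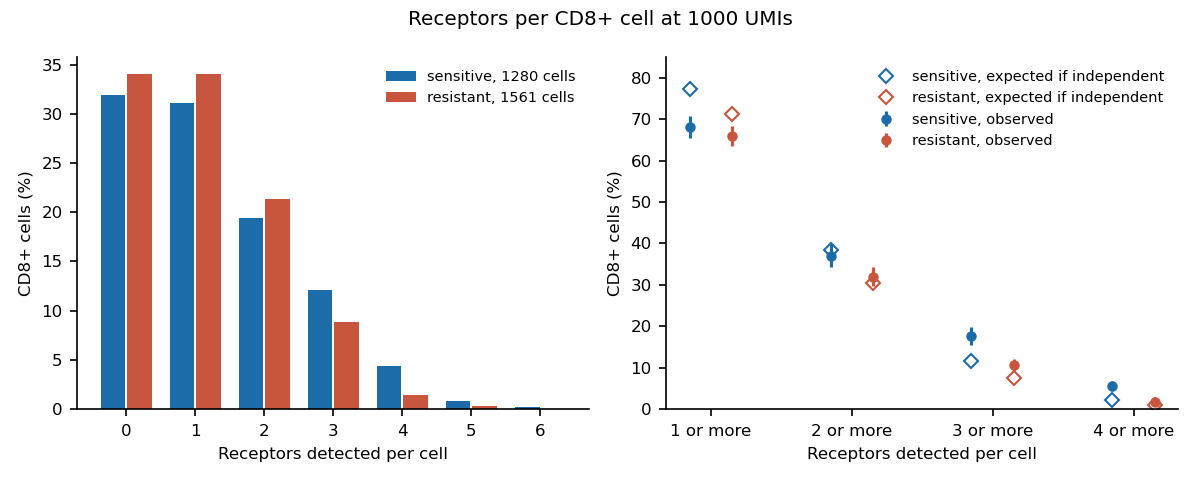
Left, percent of CD8+ cells with each number of receptors after thinning to 1000 UMIs (bars, 1 library each). Right, percent of CD8+ cells with at least 1, 2, 3 or 4 receptors, observed (filled points with 95% intervals) and expected if the receptors were detected independently (open diamonds); with 3 or more, 17.6% and 10.6% were observed against 11.6% and 7.57% expected.

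The difference between libraries depended on the depth to which cells were thinned. At 500 UMIs, 19.3% of sensitive and 11.9% of resistant CD8+ cells had 2 or more receptors, and at 2000 UMIs 59.0% and 58.1% had. At 3000 UMIs the order for 2 or more was turned, with 72.2% and 74.4%, and 318 sensitive and 285 resistant cells too shallow for that depth were left out. Without thinning, the deeper resistant cells had the larger share, 81.9% against 73.6%. Cells with 4 or more receptors remained more frequent in the sensitive library at 2000 UMIs, 19.8% (17.6 to 22.2) against 11% (9.48 to 12.7), and at 3000 UMIs, 31.3% (28.4 to 34.3) against 21% (18.8 to 23.4). Cells with no receptor came to 10.7% (8.83 to 12.8) and 8.36% (6.90 to 10.0) at 3000 UMIs, and the SD of the receptor number was 1.65 against 1.32. At that depth the sensitive library was wider at both ends, with overlapping intervals at 0 and separate ones at 4 or more. Without thinning the share with 4 or more was 42.4% and 43.1%. This share was varied in depth only.

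**Figure D3:**
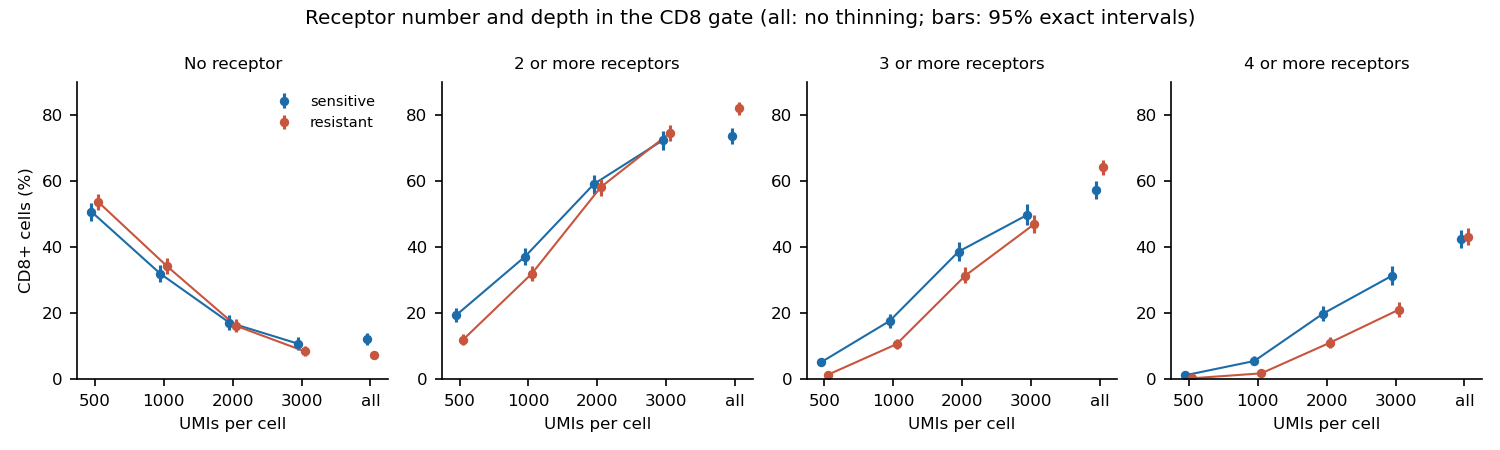
Percent of CD8+ cells with no receptor and with 2 or more, 3 or more and 4 or more receptors (vertical axes) against the UMIs kept per cell (horizontal axes; all, no thinning), for each library with 95% intervals. The lines for 2 or more meet at 2000 UMIs, 59.0% and 58.1%, while those for 4 or more stay apart at 3000 UMIs, 31.3% and 21%.

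The remaining gates carried fewer receptors per cell. CD4+ cells had a mean of 0.893 ± 1.01 (SD over 177 cells) and 0.600 ± 0.780 (SD over 45 cells), with 2 or more in 22.0% (16.2 to 28.9) and 17.8% (8.00 to 32.1), a ratio of 1.24 (0.624 to 2.46). Of the sensitive CD4+ cells 12 had 3 or more, 6.78% (3.55 to 11.5), and of the resistant ones 0 of 45, which allows up to 6.67% at this depth, so a difference was not detectable at this number of cells. In full counts 32.4% and 13.3% of CD4+ cells had 3 or more. Foxp3+ cells had at least 1 receptor in 79.5% (64.7 to 90.2) and 66.7% (34.9 to 90.1), but 2 or more in 11 of 44 and 0 of 12, the latter allowing up to 25% at this depth, and 63.8% and 58.3% had 2 or more in full counts. NK cells had 2 or more in 7 of 79, 8.86% (3.64 to 17.4), and 3 of 43, 6.98% (1.46 to 19.1), and averages of 11.3% and 4.53% over 20 other thinnings, a ratio of 2.50 against 1.27 in the draw shown. Only 1 of 81 sensitive and 1 of 18 resistant gamma-delta cells had 2 receptors, although 38.3% and 38.9% had at least 1. That draw was far from typical for the sensitive gate, since 20 other thinnings averaged 5.56% and 1.67% with 2 or more, the opposite order, so no direction is given. No NK, Foxp3+ or gamma-delta cell had 3 or more at 1000 UMIs in either library. In full counts 30.4% and 27.9% of NK cells, 29.8% and 8.33% of Foxp3+ cells and 7.41% and 5.56% of gamma-delta cells had 3 or more, against 57.3% and 64.0% of CD8+ cells, 1.2% and 4.05% of fibroblast-like cells and 10.4% and 8.42% of macrophage or monocyte-like cells. These values are not at equal depth. Median depths were 3207 and 3107 UMIs in gamma-delta cells and 3411.5 in resistant Foxp3+ cells, against 10851 and 11722.5 in macrophage or monocyte-like cells. Entpd1 was also found in 49.8% and 53.5% of macrophage or monocyte-like cells in full counts, so they are not a background. Full counts therefore do not place these gates above or below cells of other lineages. In the sensitive library, the intervals for 2 or more in CD8+ cells lay above those in CD4+, NK and gamma-delta cells and overlapped that of Foxp3+ cells.

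After thinning to 1000 UMIs, single receptors and pairs accounted for most receptor-bearing CD8+ cells. CD8+ cells fell into 77 (sensitive) and 73 (resistant) different combinations, the empty one included. In full counts, most receptor-bearing CD8+ cells had 3 or more receptors. Such cells made up 57.3% of sensitive and 64.0% of resistant CD8+ cells, where 88.0% and 92.8% had any receptor. The combinations below were read at 1000 UMIs only, so a receptor called absent may have UMIs in full counts. Pdcd1 alone was found in 101 sensitive cells, 7.89%, and 170 resistant cells, 10.9%. Pdcd1 with Lag3 and nothing else was the most frequent pair in both libraries, with 40 cells, 3.12%, and 68 cells, 4.36%. Ctla4 alone was found in 73 cells, 5.70%, and 61 cells, 3.91%. In sensitive CD4+ cells, Ctla4 alone led with 29 of 177 cells, and Lag3 with Ctla4 was the leading pair with 8 cells.

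Pairwise co-detection was given as cells with both receptors over the number expected from the 2 shares within a library. Of the 21 pairs, 20 were expected in at least 5 CD8+ cells in each library. The ratio was above 1 for 17 of them in the sensitive library, with a median of 1.34 (range 0.835 to 2.19), and for 18 in the resistant library, with a median of 1.2 (range 0.963 to 1.65). Pdcd1 and Lag3 were found together in 152 sensitive cells where 105.8 were expected (1.44) and in 160 resistant cells where 124.0 were expected (1.29). Lag3 was thus detected in 40.9% (35.8 to 46.0) of sensitive cells with Pdcd1 and 23.3% (20.6 to 26.2) of those without it, and in 32.7% and 21.9% of resistant cells.

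In the draw shown, the pair with the highest ratio in each library included Havcr2. In sensitive CD8+ cells it was Lag3 with Havcr2, in 46 cells where 21 were expected (2.19), and 62.2% of Havcr2+ cells had Lag3 against 26.4% of Havcr2- cells. In resistant cells it was Pdcd1 with Havcr2, in 45 cells where 27.3 were expected (1.65), and 51.7% of Havcr2+ cells had Pdcd1 against 30.2% of Havcr2- cells. Averaged over 20 other random thinnings these ratios were 2.01 and 1.32. The resistant average is below the 1.44 of Lag3 with Entpd1 in the draw shown. The top rank of Havcr2 in the resistant library is therefore given for that draw only. Havcr2 with Entpd1 was at 2.12 in the sensitive library (19 cells) and at 1.57 in the resistant library (12 cells), and Havcr2 with Tigit at 1.77 (32 cells) and 1.02 (18 cells). TIM-3 is known as a receptor of late exhaustion, when other receptors are already present.

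Cd160 was below 1 in 4 of its pairs in sensitive and 2 in resistant CD8+ cells. Its pair with Havcr2 was the lowest in both libraries, at 0.633 and 0.626, on 3 cells each where fewer than 5 were expected, and averaged 0.890 and 0.939 over 20 other thinnings. The lowest pair with at least 5 expected cells was Ctla4 with Cd160 in the sensitive library, 16 cells where 19.2 were expected (0.835), and Ctla4 with Entpd1 in the resistant library, 18 cells where 18.7 were expected (0.963). In sensitive CD8+ cells Cd160 was near or below 1 with Pdcd1 (0.923), Tigit (1.00), Ctla4 (0.835) and Entpd1 (0.906) and at 1.16 with Lag3. In resistant CD8+ cells it was at 1.26 with Pdcd1 and 1.29 with Lag3. Whether the ratios differ between libraries was not tested, with 1 library each. Outside the CD8+ gate, pairs could be read in sensitive CD4+ cells, in which all 5 pairs with at least 5 expected cells were above 1, from 1.26 to 1.77, led by Pdcd1 with Lag3 in 10 cells where 5.64 were expected, and in sensitive Foxp3+ cells for 1 pair, Tigit with Ctla4, in 6 cells where 7.09 were expected (0.846).

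**Figure D4:**
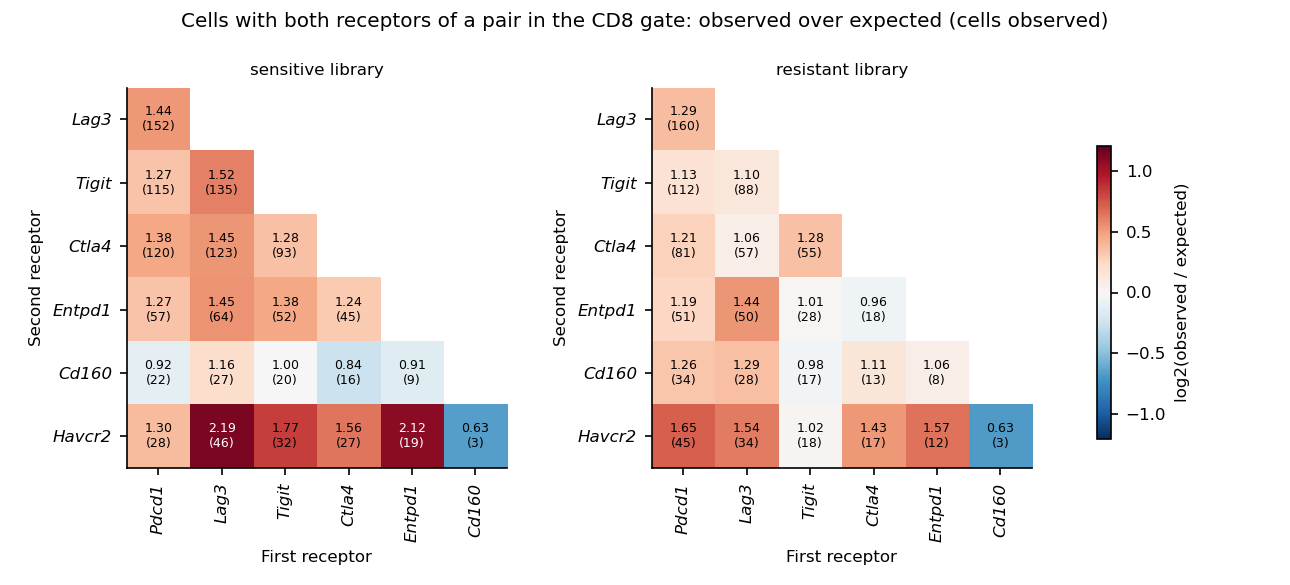
Observed over expected number of CD8+ cells with both receptors of each of 21 pairs (value in each square, cells observed in brackets; color, log2 of the ratio), for the sensitive library (left) and the resistant library (right) after thinning to 1000 UMIs. In this draw the row of Havcr2 holds the highest values, 2.19 with Lag3 and 1.65 with Pdcd1, and also the lowest, 0.63 with Cd160 in both.

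CD8+ cells were not uniform, and the receptors were spread unevenly over the 7 clusters with at least 30 CD8+ cells in each library. Clusters had been drawn with all variable genes, so their receptor shares describe them and were not tested. The cluster led by Gzmf and Prf1, which encode a granzyme and the pore-forming perforin, held the most receptors, 2 or more being found in 71.2% (65.4 to 76.5) of its 271 sensitive and in 50.8% (43.4 to 58.1) of its 189 resistant cells. Lag3 was detected in 62.4% of its sensitive and 39.2% of its resistant cells, Ctla4 in 44.6% and 25.4%, and Pdcd1 in 44.6% and 43.9%. Lag3 and Trbv14, a variable segment of the T cell receptor beta chain, were among the 10 leading genes of this cluster. It made up 21.2% of sensitive and 12.1% of resistant CD8+ cells.

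The cluster led by Ccl5 and Gzma had 2 or more receptors in 53.2% and 41.2% of cells, and Entpd1 in 24.3% and 10.6%. The cluster led by Gm156 and Xcl1, which also had Tox among its leading genes, was the largest in the resistant library, with 31.5% of its CD8+ cells against 10.8%, and had 2 or more receptors in 33.5% and 39.1%, Ctla4 being detected in 8.94% and 12.3% of its cells. Cycling cells, led by Pclaf and Stmn1, had 29.9% and 38.1% in the resistant and sensitive libraries, and interferon-responsive cells, led by Ifi214 and Ifit3, 30.7% and 30.2%. At the low end, the cluster led by Tcf7 and Slamf6, genes of naive and stem-like memory T cells, had 2 or more receptors in 5 of its 74 sensitive cells, 6.76%, and in 1 of its 36 resistant cells, 2.78%. A cluster led by immunoglobulin genes, which CD8+ T cells do not make, had 13.6% and 12.3%, and held 29.8% of sensitive but 13.5% of resistant CD8+ cells. Its part in the differences between the libraries was not tested.

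Trbv14 marked a further difference. A Trbv14 UMI was found in 185 sensitive CD8+ cells, 14.5%, and 78 resistant cells, 5.00%. Of these, 61.1% (53.7 to 68.1) of the sensitive but 30.8% (20.8 to 42.2) of the resistant cells had 2 or more receptors, and 35.7% (28.8 to 43.0) and 8.97% (3.68 to 17.6) had 3 or more. In CD8+ cells without it, 33.0% (30.2 to 35.8) and 32.0% (29.6 to 34.4) had 2 or more, a ratio of 1.03 (0.922 to 1.15), and 14.5% (12.5 to 16.7) and 10.7% (9.13 to 12.3) had 3 or more, a ratio of 1.36 (1.11 to 1.67). Sensitive cells with Trbv14 had Lag3 in 55.1% and Havcr2 in 15.7%, against 23.9% and 4.11% of sensitive cells without it. Ctla4 differed between the libraries on either side, with 29.7% and 12.8% among cells with Trbv14 and 22.3% and 13.7% among cells without.

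**Figure D5:**
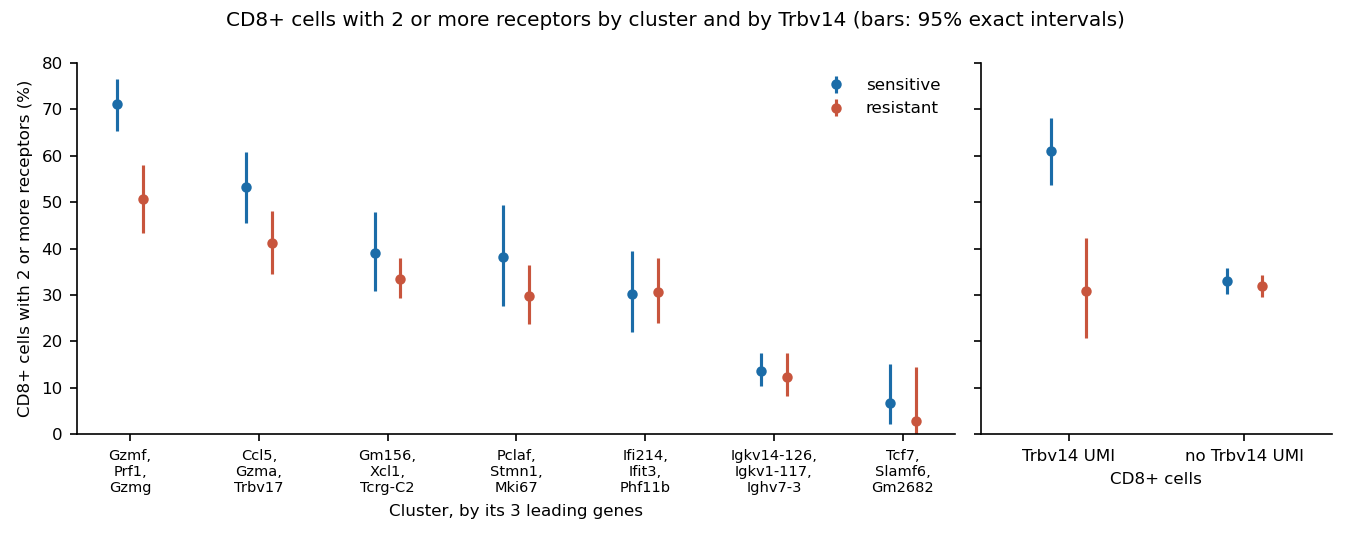
Percent of CD8+ cells with 2 or more receptors after thinning to 1000 UMIs (vertical axis) in 7 clusters, named by their leading genes (left), and in cells with or without a Trbv14 UMI (right), for each library with 95% intervals. The Gzmf and Prf1 cluster is highest, 71.2% and 50.8%, and cells without Trbv14 have 33.0% and 32.0%.

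Genes other than the receptors were compared within each library between CD8+ cells with 3 or more receptors (225 sensitive, 165 resistant) and with none (408 and 532). Both classes were drawn at 1000 UMIs, so a cell with none may hold receptor UMIs in its full counts. Without thinning only 12.0% of sensitive and 7.22% of resistant CD8+ cells had no receptor, against 31.9% and 34.1% at 1000 UMIs. The sensitive cells of these classes had median depths of 4218 and 3591.5 UMIs and mitochondrial shares of 2.46% and 2.55%, and the resistant cells 4818 and 4628 UMIs and 5.70% and 5.76%. A Trbv14 UMI was left after thinning in 22.7% and 5.39% of these sensitive cells and in 3.03% and 3.38% of the resistant ones. Of 3631 genes with enough UMIs, 77 (2.12%) were more than 1.5-fold higher in both libraries in cells with 3 or more, and 68 (1.87%) lower. Genes were ranked by the smaller fold of the 2 libraries, and cytotoxic molecules and cytokines were among the 15 highest. Gzmf was 7.31-fold (sensitive) and 3.33-fold (resistant) higher, Prf1 6.67-fold and 2.69-fold, Ccl3, a chemokine, 7.76-fold and 2.58-fold, and Ifng, which encodes interferon gamma, 3.26-fold and 2.48-fold. Tnfrsf9, which encodes the costimulatory receptor 4-1BB, was at 539 and 114 CPM in sensitive cells with 3 or more and with none (4.73-fold) and at 518 and 241 CPM in resistant cells (2.15-fold). The nuclear receptor gene Nr4a2 was 4.84-fold and 2.07-fold higher and Dusp4, a MAP kinase phosphatase, 3.68-fold and 2.07-fold. The rest of the 15 highest genes were Trbv17, Rgs16, Rgs2, Hilpda, Lyst, Uhrf2, Nrn1 and Ier3, with folds from 2.81 to 6.76 (sensitive) and from 2.05 to 2.58 (resistant).

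The 10 genes with the lowest folds, higher in cells with no receptor, included several for surface proteins. Ly6c2 was at 79.3 CPM in sensitive cells with 3 or more and 472 CPM in those with none (0.168), and at 14.6 and 219 CPM in resistant cells (0.0666). Ly6c1 was at 0.206 and 0.0870 of its level in cells with none, and the chemokine receptor gene Cxcr3 at 0.204 and 0.273. Itgae, which encodes the integrin alpha chain CD103, was at 0.287 and 0.258, and Itgb7, which encodes its partner chain, at 0.348 and 0.209. Plac8, Gramd3, Rgs10, Pag1 and Qpct completed the 10 lowest genes, between 0.283 and 0.406 in both libraries. Gzma went opposite ways, 1.59-fold higher in sensitive cells with 3 or more (912 and 573 CPM) and 0.136 of the level in resistant ones (239 and 1755 CPM), and was named after its values were seen.

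By list, beside the 2.12% of genes higher and 1.87% lower in both libraries, transcription factors of exhaustion had 5 of 11 measured members more than 1.5-fold higher in cells with 3 or more receptors in both libraries and none lower. These were, named after their values were seen, Tox (4.51 and 1.93), which establishes the exhausted state, Nr4a2, Batf (1.78 and 1.94), Ikzf2 (1.65 and 1.63) and Stat3 (2.02 and 1.64), and the list's median fold was 1.91 (sensitive) and 1.5 (resistant) against 0.980 and 0.994 over all genes. Effector genes had 6 of 12 higher and none lower, costimulatory receptors 3 of 7 higher and 1 lower, the lower one being Cd226 (0.579 and 0.544), the activating receptor that shares ligands with TIGIT. Of inhibitory signalling genes 3 of 11 were higher, Sh2d1a, Sh2d2a and Cblb, which encode 2 adaptors and a ubiquitin ligase that restrains T cell activation. Other inhibitory receptors had 1 of 7 higher, Cd38 (1.82 and 1.63). Cell cycle genes had 5 of 9 lower and none higher in full counts, but none of these 5 passed in both libraries in counts thinned to 1000 UMIs, where Mcm5 (0.330 and 0.537) did. The thinned folds of this list were below 1 except those of Pcna in the sensitive and of Mki67 and Tyms in the resistant library, and Birc5 (0.227 and 0.675) and Ube2c (0.191 and 0.669) fell just short in the resistant library. A UMI of Mki67 or Top2a was left in 5.78% against 6.62% of sensitive and 8.48% against 12.4% of resistant cells after thinning. None of 4 naive and memory genes, 7 interferon-stimulated genes and 5 ligand and adenosine genes passed in both libraries in full counts. In thinned counts 3.36% of the 3631 genes were higher and 3.53% lower in both libraries. The same 6 effector genes passed there, as did Cd226 and Cd38, whereas Icos and Sh2d2a no longer passed. Of the exhaustion list 5 of 11 passed again, with Nfatc1 (2.0 and 2.96) and Bhlhe40 (2.23 and 1.53) in place of Batf and Ikzf2. Of the other inhibitory receptors Cd5 (1.99 and 1.5) was added, and of the naive and memory genes Il7r (0.515 and 0.563) and Klf2 (0.502 and 0.611) were lower in both.

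The same lists were compared between the libraries over all CD8+ cells, with 1.5-fold on CPM as before, which 5.46% of genes passed upward and 2.37% downward in the sensitive library. Among 11 measured inhibitory receptors outside the 7, Lilrb4a (1.61) and Vsir (1.52), which encodes VISTA, were higher in the sensitive library and Cd200r1 (0.540) lower. Of 10 ligand and adenosine genes, the adenosine receptor gene Adora2a was higher (1.72, 1.34 to 2.21) and Cd80 lower (0.645, 0.458 to 0.899). None of 13 inhibitory signalling genes passed. Exhaustion transcription factors had 6 of 17 higher, the largest being Maf (3.78, 2.85 to 5.06) and Nr4a1 (2.0, 1.79 to 2.24), and Ikzf2 lower (0.618, 0.545 to 0.699). Costimulatory receptors had 3 of 7 higher, Icos (2.50), Cd226 (1.60) and Cd27 (1.5).

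Effector genes had 9 of 13 higher in the sensitive library, led by Ccl3 (3.29), Ccl5 (2.56), Gzmk (2.37) and Ccl4 (2.29), and 3 lower, Gzmf (0.275), Gzmc (0.408) and Gzma (0.624). Gzmf was therefore higher in cells with 3 or more receptors in both libraries and lower over the sensitive CD8+ cells as a whole. Naive and memory genes had 5 of 8 higher, among them Lef1 (2.43), Tcf7 (1.99) and Slamf6 (1.82). Of 10 cell cycle genes 3 were lower, Birc5 (0.588), Ube2c (0.639) and Stmn1 (0.650), and of 8 interferon-stimulated genes 3 were higher, Rsad2 (1.72), Irf7 (1.71) and Ifit3 (1.66). Median ratios ran from 0.726 for the cell cycle list to 1.92 for the effector list, and that of the 7 receptors was 1.25, against 1.09 over all genes.

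The genes whose levels were most like those of a receptor were sought over 20 points, the 5 gates and 5 other cell classes in both libraries, as the correlation of log2(CPM + 10) among 12370 genes. Points of a library share its depth and free RNA, and points of lymphocyte gates share most of their genes, so the values are descriptions. Pdcd1 was closest to Bcl11b, Cd3g and Lat (Pearson r 0.92 to 0.93), all genes of T cells. Ctla4 was closest to Tnfrsf18, which encodes GITR, Cd2 and Mif4gd (0.96 to 0.97), and Tigit to Spn, Ctcf and Fis1 (0.95 to 0.97). Cd160 was closest to Klre1, an NK cell receptor gene, Prf1 and Eomes (0.94 to 0.96). Lag3 had Rap1a, Gm30054 and Fut7 (0.84 to 0.87), Havcr2 had B3gnt5, AA467197 and Ifitm1 (0.78 to 0.79), and Entpd1, which neutrophil-like cells also carried, had Lilr4b, Plek and Trim30a (0.88 to 0.92).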

How the data were processed

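The authors aligned reads to mm10 with Cell Ranger and deposited raw UMI counts per gene and barcode; per the file headers the version was 6.0.0. Whole-tumor libraries were not used here. Barcodes under 500 detected genes or above 10% mitochondrial UMIs were left out. The highest Scrublet scores, 0.8% per 1000 barcodes, were removed as putative doublets (101 sensitive, 84 resistant cells). Leiden clusters (scanpy 1.11.5, 2000 variable genes, 30 components, 15 neighbors, both libraries together without correction) were named from marker lists when at least 3 markers were present. A cluster lost its name where another class had at least 2 leading markers and more than its own, a rule added after the clusters were seen. These names are rebuilt and may not match the study's.

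Gates used full counts and detection used counts thinned to 1000 UMIs (numpy 2.4.6, fixed seed). Thinning left out 10 sensitive and 4 resistant CD8+ cells. Shares have Clopper-Pearson intervals, ratios of shares log-scale intervals and CPM ratios exact conditional binomial intervals (scipy 1.17.1). With 1 library per group no p-value was computed. Count models were not needed, and the code was tested on simulated data. The 7 receptors and the gene lists were chosen with earlier results of these data known. Named were the receptors, list members past 1.5-fold between libraries (at most 4 each way), the 15 highest and 10 lowest genes by receptor number, the extreme pairs and the 3 genes most like each receptor.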

Additional observations from a re-analysis of the deposited data

How the results depend on the processing

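The ratio of sensitive to resistant CD8+ cells with 2 or more receptors, 1.16, was 1.62 at 500 UMIs, 1.02 at 2000 UMIs, 2.47 where 2 UMIs were asked for and 1.03 without cells with a Trbv14 UMI, and below 1 at 3000 UMIs (0.971) and without thinning (0.899). That for 3 or more, 1.66, was 3.94, 1.23, 5.28 and 1.36 in the same order, 1.06 at 3000 UMIs and 0.895 without thinning. The 3000 UMI depth and the count of 3 or more were added after seeing the data. The count of 4 or more was varied in depth only, and not without Trbv14 cells, without cycling cells or at another mitochondrial limit. Other gates, another mitochondrial limit, kept doublets and removal of cycling cells left both ratios above 1 and inside their intervals. Without thinning depth is unequal by construction; the cause of the other shifts was not tested. In the CD4, NK and gamma-delta gates the alternatives stayed inside wide intervals, and no ratio could be formed for Foxp3+ cells, with 0 of 12 resistant cells. Of 226 alternative CPM ratios of receptors 206 stayed inside the interval, 18 moved and 2 that had an interval off 1 turned, Tigit (0.787) and Ctla4 (0.620) in Foxp3+ cells at 5% mitochondrial UMIs; 22 in all lay across 1 from the reported ratio. Of 420 pair values 375 stayed, 42 moved, 52 lay across 1 and 3 of those had an interval off 1, all resistant: Lag3 with Havcr2 at 500 UMIs (0.788), and Pdcd1 with Havcr2 and Lag3 with Entpd1 where 2 UMIs were asked for (0 cells in each). The 647 genes past 1.5-fold in CD8+ cells became 1487 with a minimum of 20 UMIs and 146 at a fold of 2. In thinned counts the folds of the 25 highest and lowest genes by receptor number kept their direction in all 50 values, 19 of them outside the interval, whereas 22 of 134 values of list genes lay across 1, among them, with an interval off 1, Mki67 (1.07) and Tyms (1.23) in the resistant and Pcna (1.15) and Usp18 (1.07) in the sensitive library. No paired analysis was possible because each group had 1 library and the labels give no replicate numbers.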
